A study of Danio rerio with 6 samples.

Results

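The nuclear estrogen receptors were followed in juvenile zebrafish that developed with or without the aromatase inhibitor exemestane (EM). They are the estrogen receptor genes esr1 (ENSDARG00000004111), esr2a (ENSDARG00000016454) and esr2b (ENSDARG00000034181). These 3 genes were chosen by their Ensembl identifiers, with no cut on their values, from the 32520 genes of the count table. The choice was made with earlier results of these data known. All 3 had reads in all 6 libraries. EM is a steroid that blocks aromatase, the enzyme that turns androgens into estrogens. The EM-juveniles were kept in water with 10 µg/L EM in dimethyl sulfoxide (DMSO) and the solvent control juveniles in water with DMSO at 10 µL/L. Both were exposed for 32 days and were of the wild-type AB strain. Per the study, exposure began at fertilization and the juveniles were sampled at an age of 32 days. Each library held the whole bodies of 25 fish pooled from 1 tank, and each group had 3 libraries. A pool does not show which of its fish were becoming males or females, and in whole bodies fewer cells of a type and less RNA per cell cannot be told apart.

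Estrogen receptors are transcription factors that sit inactive with chaperones until a steroid binds them, and then act on genes through DNA elements and coregulator proteins. Teleost fish carry a single Esr1 and duplicated beta receptors, Esr2a and Esr2b. In the fish liver, estrogen induces the egg yolk precursors, the vitellogenins, and esr1 itself, and in zebrafish Esr2b takes part in that induction. Zebrafish that lack both beta receptors fail to keep their ovaries. The comparison asks whether blocking estrogen synthesis through sex differentiation goes with another level of these receptors.

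The libraries held between 3169530 and 7804654 counts. Control replicate 2 had the fewest counts and 21182 detected genes, against 24418 to 24966 in the others. It was the lowest library in 40.9% of the 19280 genes with a mean normalised read count of at least 10. To normalise, each count was divided by the size factor that DESeq2 gave its library, which was 0.404 in control replicate 2 and between 0.893 and 1.71 in the others. The liver marker apobb.1, an apolipoprotein B gene, was read in every library, with 10792 in control replicate 2 and from 24786 to 32223 in the others. The deeper libraries were control replicates 1 and 3 together with EM replicate 1, so a comparison within deep or shallow libraries would have a single library on 1 side. Intervals for single libraries are exact 95% Poisson or binomial intervals and cover counting error only. Where 3 values are given for a group they stand in the order of replicates 1, 2 and 3.

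None of the 3 receptor genes differed between EM-juveniles and control juveniles at a DESeq2 adjusted p-value under 0.05. Over all 23966 genes tested, 260 or 1.08% passed that threshold. The edgeR quasi-likelihood test called 0 of the 3 and 0 of 19264 genes, 759 of which (3.94%) had an unadjusted p-value under 0.05. At an unadjusted p-value under 0.05, 1 of the 3 passed in each test, esr1, against 6.98% of all genes in DESeq2. The total over the 6 libraries was 182 reads for esr1, 311 for esr2a and 483 for esr2b, so each receptor rests on few reads. Transcript lengths were not used here, and the levels of different receptors are therefore not ranked against each other.

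**Figure D1:**
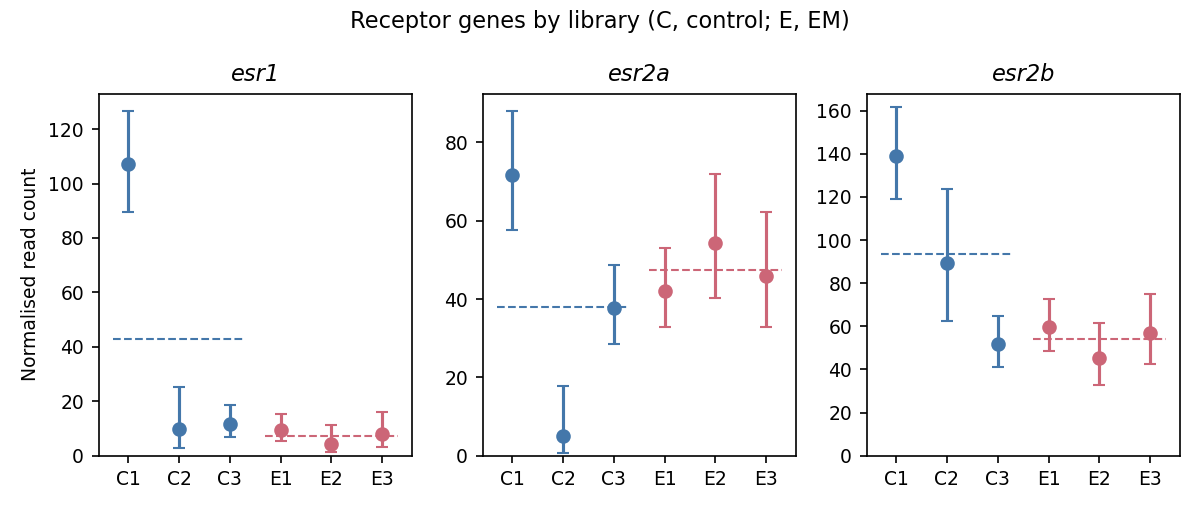
Normalised read count of each receptor gene (y axis, linear from 0) in control replicates 1 to 3 (C1 to C3) and EM replicates 1 to 3 (E1 to E3). Points are single libraries of 25 pooled fish, bars are exact 95% Poisson intervals and dashed lines are group means. Control replicate 1 holds 107 for esr1 while no other library passes 11.7, and control replicate 2 is lowest for esr2a but not for esr2b.

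esr1 encodes the alpha receptor, which in fish is itself raised by estrogen in the liver. It drew 133, 4 and 18 reads in the controls and 16, 4 and 7 in the EM-juveniles. The normalised read count was 107 (95% interval 89.6 to 127) in control replicate 1, 9.91 (2.70 to 25.4) in control replicate 2 and 11.7 (6.93 to 18.5) in control replicate 3. In the EM-juveniles it was 9.37 (5.35 to 15.2), 4.44 (1.21 to 11.4) and 7.83 (3.15 to 16.1). A single control library was therefore high, and the intervals of the 5 other libraries overlapped from each to the next in order. The group means were 42.9 ± 55.5 (SD, n = 3) in controls and 7.21 ± 2.52 (SD, n = 3) in EM-juveniles. The log2 fold change was -2.58 ± 1.00 (SE), with a 95% interval of -4.54 to -0.62 (adjusted p-value 0.368 in DESeq2 and 0.916 in edgeR).

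Every control library lay above every EM library for esr1, which held for 1 of the 3 receptors and for 11.3% of all genes tested, 5.7% with the EM-juveniles higher and 5.6% with them lower (exact permutation test, two-sided, p = 0.1, the smallest that 3 libraries against 3 allow). The gap between the lowest control and the highest EM library, 9.91 against 9.37, came from 4 and 16 reads. On counts scaled to the library total (CPM) it closed, with 1.26 CPM in control replicate 2 and 2.05 CPM in EM replicate 1 (exact permutation test, two-sided, p = 0.4). Without control replicate 1 the control mean of esr1 was 10.8 and the log2 fold change -0.58 ± 0.99 (SE; 95% interval -2.51 to 1.35, DESeq2 adjusted p-value 0.982). Without control replicate 2 it was -3.02 ± 0.91 (SE; adjusted p-value 0.0723 in DESeq2 and 0.568 in edgeR). The size of the esr1 difference was thus set by control replicate 1.

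**Figure D2:**
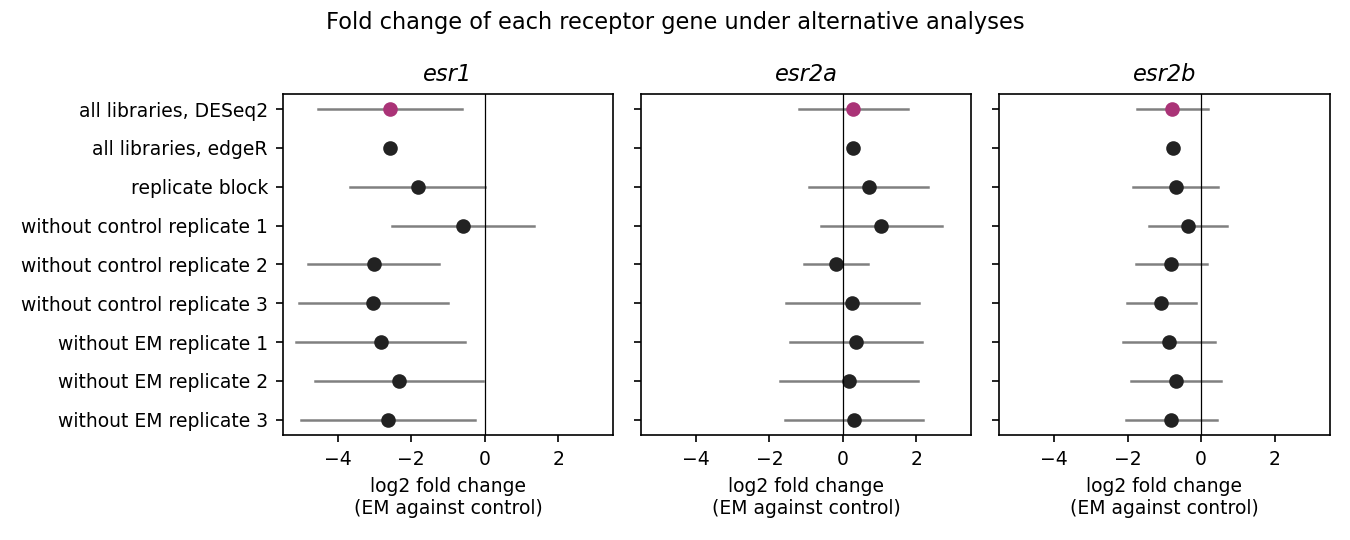
DESeq2 log2 fold change of each receptor gene, EM against control (x axis), with all libraries, with the replicate number as a block and with each library left out (rows). Points are estimates and bars 95% intervals; the edgeR estimate has no interval. Without control replicate 1 the value of esr1 moves from -2.58 to -0.58, and without control replicate 2 that of esr2a changes sign.

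The high esr1 of control replicate 1 was looked at next among all genes. Control replicate 1 exceeded the next library 9.16-fold for esr1. Of the 19280 genes with a mean normalised read count of at least 10, 11 including esr1 (0.0571%) reached that ratio. This set was drawn after the esr1 values were seen and no test was made on it. The other 10 were vtg1 to vtg7, f13a1a.1, fam20cl and nots. The 7 vitellogenins are yolk precursors made by the liver of females under estrogen, f13a1a.1 is named for a subunit of coagulation factor XIII, fam20cl for the FAM20 family of secreted-protein kinases, and nots encodes nothepsin, an aspartic protease known from the liver of female zebrafish.

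vtg2 had 5378 reads in control replicate 1, against 1 and 0 in the other controls and 1, 0 and 0 in the EM-juveniles. vtg1 had 4661 reads in control replicate 1, against 0 and 2 in the other controls and 0, 2 and 6 in the EM-juveniles. vtg7 had 5602 reads in control replicate 1, and its next highest library was EM replicate 3 with 22. Vitellogenin transcripts were thus abundant in a single control library and close to absent from the other controls as well as from the EM-juveniles. Summed over the 7 genes there were 20055 reads in control replicate 1 and between 8 and 37 in each other library. Several of the vitellogenins are near-identical copies, so that the split of reads among them is uncertain. nots had 137 reads in control replicate 1 and from 0 to 6 in the others, f13a1a.1 had 521 and from 0 to 4, and fam20cl had 161 and from 0 to 1.

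Pearson's r of log2 normalised counts between esr1 and each vitellogenin ran from 0.902 to 0.970. These values describe 6 libraries of which control replicate 1 sets the trend. In DESeq2 the vitellogenins received no p-value, because its Cook's distance filter removes genes in which a single library dominates. esr1 passed that filter.

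**Figure D3:**
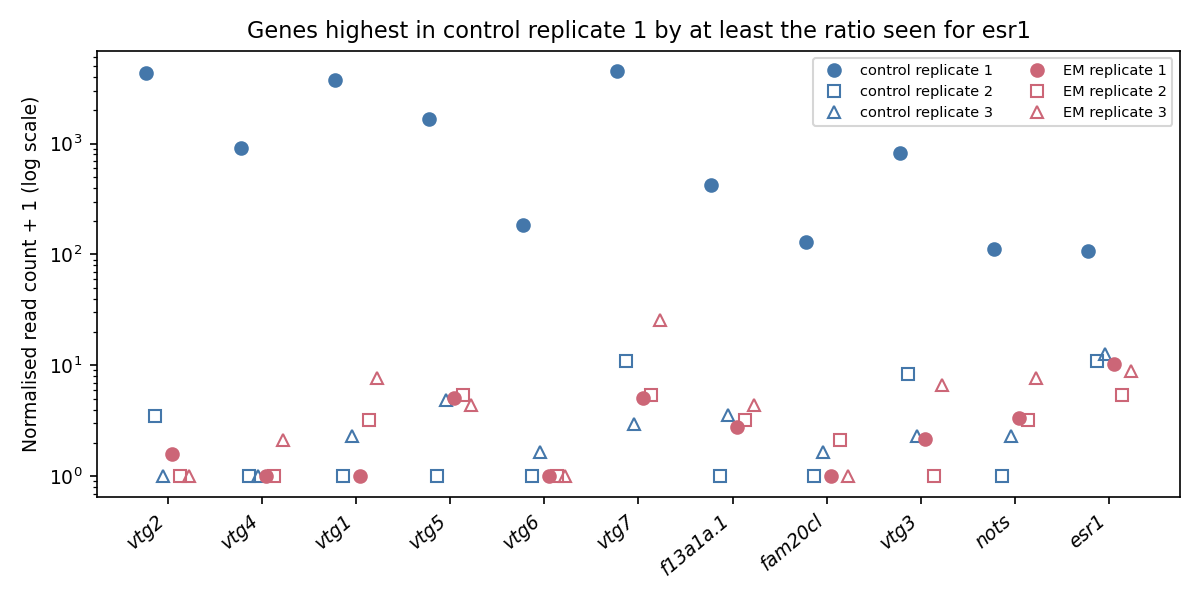
Normalised read count plus 1 (y axis, log scale) of the 11 genes whose level in control replicate 1 exceeded the next library by at least the 9.16-fold ratio of esr1 (x axis, ordered by that ratio). Each point is a library; filled blue circles are control replicate 1. The 7 vitellogenins reach 182 to 4506 in that library and at most 24.6 in any other, while esr1 keeps 4.44 to 11.7 in the other libraries.

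The summed oocyte and ovary markers were also highest in control replicate 1, but they were read in the other controls. Of 10 listed markers, 8 could be paired with an identifier. Among these, paqr5a did not follow the pattern, with 8.85, 4.95 and 9.74 in the controls and 8.20, 9.99 and 4.48 in the EM-juveniles. The summed normalised read count of 8 oocyte and ovary markers was 1279, 186 and 517 in the controls and 22.8, 16.6 and 15.7 in the EM-juveniles. The controls lay above the EM-juveniles without overlap in 6 of the 8, against 5.6% of all genes. For the listed markers bmp15 and figla that rested on 1 read of each in control replicate 2, a normalised count of 2.48. bmp15 had 2 reads, or 2.24, in EM replicate 3. DESeq2 called 5 of the 8 lower in EM-juveniles, against 0.663% of all genes. The markers were chosen with earlier results of these data known, and the study itself reported zar1 and zpcx as higher in control juveniles. These counts therefore describe the list and are no independent evidence. zp3b, a gene of the egg coat, had 340, 91.6 and 208 in the controls and 7.61, 2.22 and 3.36 in the EM-juveniles (adjusted p-value 7.07e-11 in DESeq2 and 0.0791 in edgeR). zar1, an oocyte regulator of maternal transcripts, had 422, 44.6 and 130 in the controls and from 1.11 to 4.10 in the EM-juveniles (DESeq2 adjusted p-value 7.64e-08, edgeR 0.129). For both genes the lowest control library lay far above the highest EM library. When control replicate 2 was left out, edgeR called both (adjusted p-values 0.00262 for zp3b and 0.00688 for zar1), among 127 of 20784 genes. Without EM replicate 1 edgeR also called zp3b (adjusted p-value 0.0348), among 190 of 19548 genes.

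zpcx and zar1l, further genes of the egg coat and of the zar1 family, had 2 reads and 1 read over the 3 EM libraries. zpcx had 312, 32.2 and 101 in the controls, whose mean exceeded the level of the pooled EM reads 259.8-fold with an exact 95% counting interval of 71.9 to 2145, and 116-fold (32.2 to 961) without control replicate 1 (DESeq2 adjusted p-value 2.46e-06, edgeR 0.140). zar1l had 130, 7.43 and 43.5 in the controls, or 212-fold (38.0 to 8359) the level of the pooled EM reads, and 89.2-fold (16.0 to 3523) without control replicate 1 (DESeq2 adjusted p-value 0.000233). Both ratios were thus smaller without that library. Their intervals count the EM reads alone and take the control mean as fixed, so they leave out the spread of the controls. The remaining called marker, figla, a transcription factor of oocytes named after its values were seen, had 48.3, 2.48 and 16.9 in the controls and from 0 to 1.11 in the EM-juveniles (DESeq2 adjusted p-value 0.0315). DESeq2 kept the call of figla without control replicate 2 and lost it when any of the other 5 libraries was left out, with the replicate block, with total counts as size factors and with the minimum of 10 counts in 3 libraries. With all libraries, the expression filter of edgeR removed zar1l and figla. Without control replicate 2 edgeR called zpcx, zar1l and figla (adjusted p-values 0.00847, 0.00815 and 0.0360), among 127 of 20784 genes. Without control replicate 1 it called 0 of 19537 genes. In DESeq2 without control replicate 1, 4 of the 8 markers stayed called, zar1, zar1l, zp3b and zpcx. Of 6 listed testis and male gonad markers, 5 could be paired with an identifier and 4 were tested. These had 0 calls, against 1.08% of all genes. Since dmrt1, inha and nr5a1b had at most 12 reads in any library, the lack of calls says little. The 5 paired markers summed to 41.0, 12.4 and 66.9 in the controls and 133, 94.3 and 59.3 in the EM-juveniles. Among them amh, the anti-Mullerian hormone of Sertoli cells, had 6.44, 0 and 13.0 in the controls and 58.0, 41.0 and 28.0 in the EM-juveniles (DESeq2 adjusted p-value 0.0827, edgeR 0.916). DESeq2 called amh without control replicate 2 or control replicate 3 (adjusted p-values 0.0285 and 0.0405). The germ cell genes ddx4 and piwil1, present in both sexes, summed to 364, 57.0 and 194 in the controls and 106, 79.9 and 52.6 in the EM-juveniles. They had 0 calls, but without control replicate 2 DESeq2 called both lower in EM-juveniles (0.00436 for ddx4 and 0.0328 for piwil1). The part that gonad content plays in the receptor values was not tested.

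esr2b, a beta receptor, was the receptor with the narrowest spread. It had 173, 36 and 80 reads in the controls and 102, 41 and 51 in the EM-juveniles. Normalised, these were 139 (95% interval 119 to 162), 89.2 (62.5 to 123) and 51.9 (41.2 to 64.6) in the controls, and 59.7 (48.7 to 72.5), 45.5 (32.6 to 61.7) and 57.1 (42.5 to 75.1) in the EM-juveniles. On these counts control replicates 1 and 2 lay above all EM libraries and control replicate 3 lay among them, so the groups overlapped. The place of control replicate 2 depended on its size factor. On CPM it held 11.4, below EM replicates 1 and 3 with 13.1 and 12.6 (exact permutation test, two-sided, p = 0.8). Its highest library exceeded its lowest 3.06-fold, compared with 24.1-fold for esr1 and 14.5-fold for esr2a.

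The group means of esr2b were 93.4 ± 43.8 (SD, n = 3) in controls and 54.1 ± 7.57 (SD, n = 3) in EM-juveniles. The log2 fold change was -0.79 ± 0.49 (SE), with a 95% interval of -1.75 to 0.18 (adjusted p-value 0.847 in DESeq2 and 0.916 in edgeR). Without control replicate 1 the log2 fold change was -0.35 ± 0.54 (SE; DESeq2 adjusted p-value 0.982), and without control replicate 3 it was -1.09 ± 0.48 (SE; adjusted p-value 0.269).

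esr2a, the other beta receptor, had 89, 2 and 58 reads in the controls and 72, 49 and 41 in the EM-juveniles. Normalised, it was 71.6 (95% interval 57.5 to 88.1), 4.95 (0.600 to 17.9) and 37.7 (28.6 to 48.7) in the controls, and 42.2 (33.0 to 53.1), 54.4 (40.2 to 71.9) and 45.9 (32.9 to 62.3) in the EM-juveniles. The EM-juveniles formed a tight group inside the range of the controls. Their coefficient of variation was 13.2%, against 87.5% in the controls. The lowest library was control replicate 2, and it was the only library whose interval did not reach that of its neighbour in order. The log2 fold change was 0.28 ± 0.76 (SE), with a 95% interval of -1.21 to 1.76 (adjusted p-value 1.00 in DESeq2 and 0.962 in edgeR). Without control replicate 2 it was -0.19 ± 0.44 (SE), the opposite sign. On normalised counts the exact permutation test over the libraries gave p = 0.7 for esr2a and 0.3 for esr2b (two-sided, smallest possible 0.1).

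Control replicate 2 therefore divided the receptors. Its level relative to the mean of the other libraries was 0.0984 for esr2a, from 2 reads and with an exact 95% counting interval of 0.0119 to 0.356, compared with a median of 0.890 over the 19280 genes. A ratio at or below that of esr2a was found for 10.3% of those genes, so a low level in this library was not particular to esr2a. For esr2b the ratio was 1.26 (0.884 to 1.75), on normalised counts. On CPM esr2b in this library (11.4) lay below EM replicates 1 and 3 (13.1 and 12.6). For esr1 the ratio was 0.353 (0.0962 to 0.904), but the mean held control replicate 1 at 107. By normalised count this library ranked 3 of 6 for esr1, with 9.91, above all EM libraries. These intervals count the reads of control replicate 2 alone and take the mean of the others as fixed. The paralogs esr2a and esr2b thus stood far apart in this library. It held 18.0 reads of esr2b per read of esr2a (exact 95% interval 4.63 to 154). The other controls had a ratio of 1.94 and 1.38, with 1.42, 0.837 and 1.24 in the EM-juveniles, and the interval of control replicate 2 overlapped none of theirs.

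Shares of the estrogen receptor reads within a library do not depend on the size factor. esr1 made up 33.7% of the 395 such reads of control replicate 1 (exact 95% interval 29.0 to 38.6%), 9.52% of 42 in control replicate 2 (2.66 to 22.6%) and 11.5% of 156 in control replicate 3 (6.98 to 17.6%). In the EM-juveniles it made up 8.42%, 4.26% and 7.07%. All controls lay above all EM-juveniles, but the interval of control replicate 2 covered all EM values and that of control replicate 3 covered EM replicates 1 and 3.

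esr2a made up 22.5%, 4.76% and 37.2% in the controls and 37.9%, 52.1% and 41.4% in the EM-juveniles. Here too the groups did not overlap, although the interval of EM replicate 1 (31.0 to 45.2%) covered control replicate 3. The shares within a library are not independent, because a high share of a receptor lowers those of the others. On normalised counts the groups overlapped for esr2a (exact permutation test, two-sided, p = 0.7), while 11.3% of all genes tested did not overlap. esr2b made up 43.8%, 85.7% and 51.3% in the controls and 53.7%, 43.6% and 51.5% in the EM-juveniles. Control replicate 3 thus had a receptor mix close to that of EM replicate 1, while control replicates 1 and 2 each differed from all other libraries, the former by esr1 and the latter by esr2b. No test was made on the shares.

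**Figure D4:**
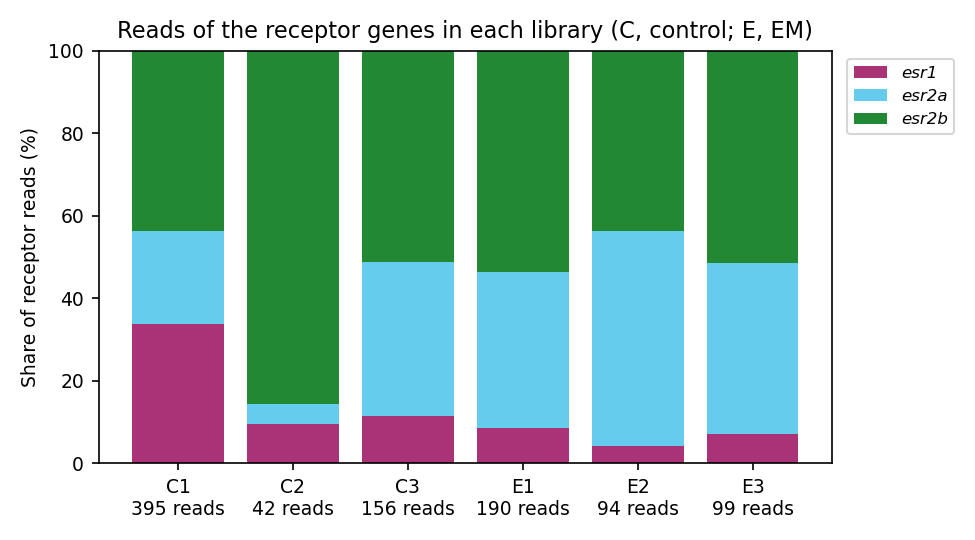
Share of the reads of the 3 estrogen receptor genes that fell to each gene (y axis, percent) in each library (x axis, with the number of such reads). Bars stack to 100%. esr2b takes 85.7% of the 42 receptor reads of control replicate 2 and esr1 takes 33.7% of the 395 of control replicate 1, while esr1 takes at most 8.42% in any EM library.

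The genes most like each receptor over the 6 libraries were ranked by Pearson's r of log2 normalised counts, as a description, among 18673 genes with a symbol. DNAH10 (0.993), anxa14 (0.990) and ACACA (0.988) were most like esr1. ACACA, named for acetyl-CoA carboxylase of fatty acid synthesis, had a normalised read count of 2331 in control replicate 1 and from 293 to 509 in the others, whereas DNAH10, named for an axonemal dynein, had only 37.0 and from 17.8 to 22.3. A correlation of at least 0.9 with esr1 was found for 45 of the 19279 other genes, with or without a symbol, or 0.233%, and with esr2b for 68, or 0.353%. si:ch211-223c9.2 (0.991), ankrd37 (0.986) and CKMT2 (0.985) were most like esr2b. CKMT2, named for a mitochondrial creatine kinase of muscle, had 1518 and 1196 in control replicates 1 and 2 and from 673 to 848 in the others.

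For esr2a likeness was more frequent. A correlation of at least 0.9 was found with 2727 of the 19279 genes (14.1%). Here control replicate 2, with 2 reads of esr2a, sets the trend, and it was the lowest library in 40.9% of the 19280 genes. zgc:123295 (0.998), SOD3 (0.997) and metap2b (0.997) were most like esr2a. SOD3, named for extracellular superoxide dismutase, had 0 reads in control replicate 2, where 3 reads would be a normalised count of 7.43. Among the receptors, r was 0.885 between esr1 and esr2b, 0.276 between esr1 and esr2a and -0.131 between esr2a and esr2b. Spearman's rank correlation of the same pairs was 0.657, -0.0857 and 0.0286, so these values depend on single libraries far from the rest. All 3 receptors had control replicate 1 as their highest library, and esr2a alone had control replicate 2 as its lowest.

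The pathway around the receptors was examined with 5 lists, from ligand synthesis to targets. Over all genes tested the median log2 fold change was 0.0009. Of the genes that make or convert the ligands, 12 of 14 could be paired with an identifier and 10 were tested, with 0 called higher and 1 called lower, against 0.421% and 0.663% of all genes. The median log2 fold change of the 12 was -0.16, and 0.039 without control replicate 1. The gene called lower was cyp11a1, which encodes an enzyme at the start of steroid synthesis from cholesterol. It had 29, 1 and 25 reads in the controls and 0 in each EM library, where 3 reads per library would be a normalised count of 2.81 on average, so the EM-juveniles lay at least 4.98-fold below the control mean of 14.0 (DESeq2 adjusted p-value 0.0124, removed by the expression filter of edgeR). Without control replicate 1 the bound was 3.32-fold. The gene stayed called without control replicate 2 or EM replicate 1, and was no longer called when any of the other 4 libraries was left out. Steroid synthesis itself was not measured here.

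Aromatase, the target of EM, is encoded by cyp19a1a and cyp19a1b. cyp19a1a, the form of the gonad, had 0, 0 and 2 reads in the controls and 0, 0 and 2 in the EM-juveniles, which is not enough to compare. cyp19a1b was among the listed genes that could not be paired with an identifier, so its level is not given here. hsd11b2, which converts glucocorticoids and takes part in making 11-oxygenated androgens, was the most abundant of the paired genes of the list. Its normalised read count was 515, 238 and 264 in the controls and 290.4, 338 and 298 in the EM-juveniles (DESeq2 adjusted p-value 1.00, edgeR 0.967).

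The other steroid receptors, 6 of 6 tested, had 0 calls, against 1.08% of all genes. Their median log2 fold change was -0.13, or 0.089 without control replicate 1. The glucocorticoid receptor nr3c1 had 380.5, 374 and 514 in the controls and 555, 579 and 412 in the EM-juveniles, and its level in control replicate 2 was near that of control replicate 1. The membrane progesterone receptor component pgrmc2 had 512, 466 and 381 in the controls and 365, 354 and 428 in the EM-juveniles. Both were read from 151 to 948 times in a library, in contrast to gper1, the membrane estrogen receptor, which had from 0 to 5 reads. The progesterone receptor pgr had from 0 to 11 reads.

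The coregulators and chaperones, 15 of 17 paired and tested, had 0 calls, against 1.08% of all genes. Their median log2 fold change was -0.25, or -0.11 without control replicate 1. hsp90ab1 and hsp90aa1.1 encode the Hsp90 chaperones that hold steroid receptors ready for their ligand. hsp90ab1 had 11473, 9417 and 15114 in the controls and 12812, 14464 and 12310 in the EM-juveniles. hsp90aa1.1 had 2248, 401 and 397 in the controls and 557, 560.3 and 1949 in the EM-juveniles, so that 1 library of each group was high. The other nuclear receptors, 16 of 17 tested, had 0 calls and a median of -0.24, or -0.15 without control replicate 1. At a share of 1.08% over all genes, 0 calls in lists this short say little. The circadian repressors nr1d1 and nr1d2a were the most abundant of them, at 436.5 to 942 and 182 to 598 over the 6 libraries.

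The estrogen targets held the 7 vitellogenins, greb1 and f2, of which DESeq2 gave a p-value to 2, with 0 calls. The median log2 fold change of the 9 genes was -7.12, or -6.94 with genes at the floor of 3 reads set to their bound, and 0.13 without control replicate 1. The last value has no bound set. Outside control replicate 1 the 7 vitellogenins together had only 8 to 37 reads in a library. It therefore cannot show whether these targets differed. f2, the prothrombin gene of the liver, had 1760.1, 545 and 1640 in the controls and 1212, 1156 and 1232 in the EM-juveniles. Control replicate 1 was thus the library with most f2, but without the gap seen for the vitellogenins. greb1, an estrogen-induced gene in human breast cells, had 26 reads in control replicate 1 and from 3 to 12 in the others. Without control replicate 2, DESeq2 called vtg5 lower in EM-juveniles (adjusted p-value 0.0134). Without control replicate 3 it called vtg2 and vtg7 (0.0221 and 0.0301). These fits all held control replicate 1, with 2052 reads of vtg5, 5378 of vtg2 and 5602 of vtg7. The other control left in each fit had 6, 1 and 4 reads of these genes, so the calls rest on control replicate 1. With all libraries and no DESeq2 filters, 0 estrogen targets were called lower.

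**Figure D5:**
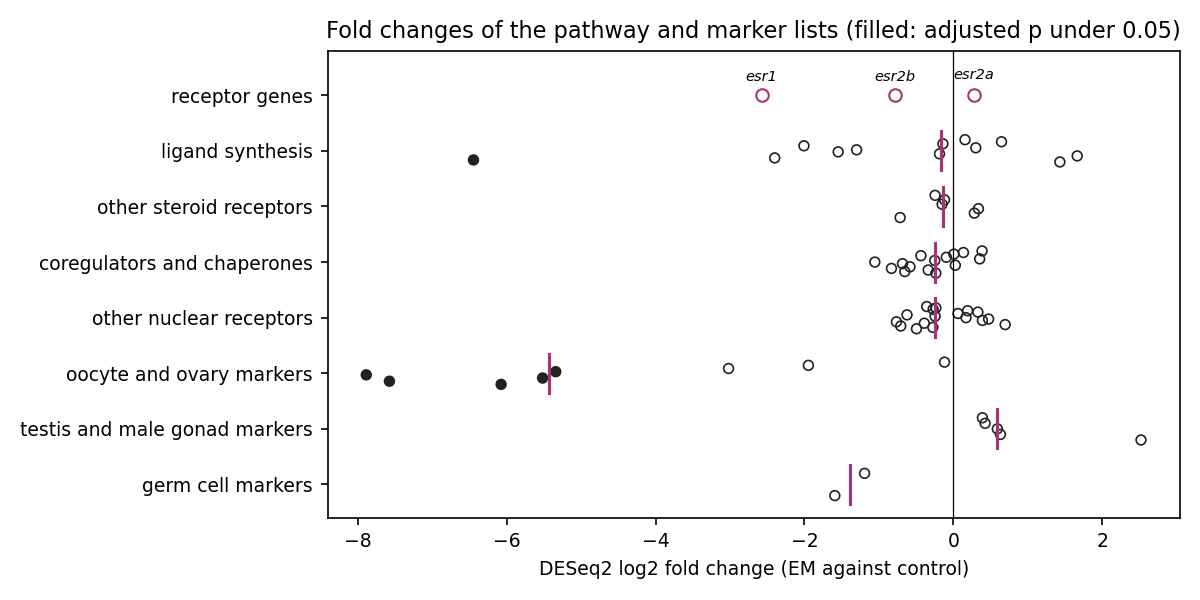
DESeq2 log2 fold change (x axis, EM against control) of the receptor genes (open, coloured) and of the genes of 4 pathway lists and 3 marker lists (rows). Each point is a gene, filled where the adjusted p-value was under 0.05, and vertical lines are list medians. Values of genes with a group near 0 reads depend on the fit and are not bounds. The filled points are cyp11a1 and 5 oocyte markers, and none of the receptors, coregulators or other nuclear receptors is filled.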

How the data were processed

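The deposited values are raw read counts per Ensembl gene in 6 libraries, without normalisation. Per the labels and the study's methods, the authors prepared stranded poly(A) libraries, aligned reads with HISAT2 2.0.5 to GRCz11, removed duplicates with SAMtools 1.5 and counted exon reads on the reverse strand with HTSeq 0.9.1. Removing duplicates can cap the counts of abundant genes. Groups and replicate numbers came from the sample titles.

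Counts were fitted on the whole table in R 4.3.3 with the Wald test of DESeq2 1.42.0 (two-sided, Benjamini-Hochberg adjusted p-value under 0.05, no covariate), the study's tool, and with the quasi-likelihood test of edgeR 4.0.16 beside it. Levels were normalised by size factor, with a pseudocount of 1 on the log2 scale for correlations. Total counts ranged from 3169530 to 7804654. No pair of libraries of a group agreed within sampling noise. The tests were checked on simulated data, with changes set only in well-covered genes and with no outlying library. That check therefore does not cover patterns like those of esr1 and esr2a. Alternatives were limma 3.58.1 voom with sample weights, TMM factors, total counts, a minimum of 10 counts in 3 libraries, no DESeq2 filters, a replicate block and leaving out each library.

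The members and lists were chosen with earlier results of these data known. Identifiers of list genes came from the study's supplementary tables or, where a single identifier carries the symbol in either case, from a reference table that pairs 29201 of the 32520 identifiers with symbols. That table names both beta receptors ESR2, so esr2a and esr2b were told apart by identifier. Symbols in capitals are those of that table. In each list the called genes (at most 4, by smallest adjusted p-value) were named, filled up to 2 by mean level, and 3 genes most like each receptor. Other genes of the lists, and the genes led by control replicate 1, were named after their values were seen. Sequences of the receptors were not used here. Of the 4 genes first chosen, 1 is not reported here.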

Additional observations from a re-analysis of the deposited data

How the results depend on the processing

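No alternative called any of the 3 receptor genes. Over the alternatives the adjusted p-value of esr1 ranged from 0.0723 to 1.00, and those of esr2a and esr2b from 0.805 and 0.269 to 1.00. With each library left out in turn, DESeq2 log2 fold changes lay between -3.03 and -0.58 for esr1. They lay between -0.19 and 1.05 for esr2a and between -1.09 and -0.35 for esr2b. edgeR was refitted only without control replicate 1, control replicate 2 or EM replicate 1, and ran from -0.20 to 1.06 for esr2a and from -0.85 to -0.31 for esr2b. For esr2a the value without control replicate 1 was 1.05, and its sign was reversed with voom (-0.19), without control replicate 2 (-0.19) and in edgeR without that library (-0.20). The fits of edgeR with libraries left out, the tests on CPM and the lists and ratios without control replicate 1 were chosen after seeing the data. The cause of the reversals was not tested.

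The 1 ligand synthesis gene called lower became 0 with edgeR, voom, the minimum of 10 counts in 3 libraries and the replicate block, and 0 to 1 in the fits that each lacked a library, and the gene was not tested by edgeR, voom or under that minimum. The estrogen targets called lower were 0 to 2 with each library left out. Total counts as size factors moved the median log2 fold change of all genes to 0.24, from 0.0009, and the receptor values to -2.44 for esr1, 0.40 for esr2a and -0.53 for esr2b. DESeq2 called 260 genes, edgeR 0, voom 93, the minimum of 10 counts 90, and 126 to 542 with each library left out. With the replicate block, which called 174 genes, the log2 fold changes were -1.83, 0.70 and -0.69 for esr1, esr2a and esr2b, none called. Same-numbered libraries came from different tanks. The deviations of such pairs from their group means correlated at -0.0049, 0.161 and -0.181, and those of pairs with different numbers from -0.150 to 0.226. These values cannot tell whether the numbers mark a pairing. At these depths, a receptor with 3 reads or fewer, a normalised count of 7.43 in control replicate 2, lay within the floor, as esr2a did there.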

Other observations

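fkbp5, a co-chaperone of Hsp90 that glucocorticoids induce in mammals, had a normalised read count of 1591, 642 and 149 in the controls and 624, 505 and 633 in the EM-juveniles (DESeq2 adjusted p-value 1.00, edgeR 0.941). The EM-juveniles lay close together and the controls on both sides of them. star, which carries cholesterol to the start of steroid synthesis, had 16.9, 14.9 and 37.0 in the controls and 24.0, 66.6 and 101 in the EM-juveniles (DESeq2 adjusted p-value 0.650, edgeR 0.916). cyp17a1, which makes androgen precursors, had 15.3, 7.43 and 16.9 in the controls and 2.34, 3.33 and 2.24 in the EM-juveniles (DESeq2 adjusted p-value 0.261). The groups did not overlap for cyp17a1, as for 11.3% of all genes tested. That separation rests on 19, 3 and 26 reads in the controls and 4, 3 and 2 in the EM-juveniles. The expression filter of edgeR removed cyp17a1. These genes were chosen after their values were seen.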
